A study of Mus musculus with 8 samples.

Results

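H3K27me3 ChIP-Seq of mouse embryonic stem cells (mESCs) identified 2092 distal sites that were found only in control cells, of 9563 sites over both conditions. A site of a condition was a merged region with a peak of both of its libraries. The 2092 sites were selected on the peak lists themselves: each was a control site that overlapped no morphine site and lay more than 1 kb from the 5′ end of every named locus of the RNA count table. They made up 78.9% of the 2652 control sites without a morphine site, the other 560 being at a 5′ end. Of the 4992 distal control sites, 41.9% were found only in control, against 18.2% of the 3085 control sites at a 5′ end, and this count is what the selection fixed, so it carries no test.

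The cells were Oct4-GFP mESCs, which carry a green fluorescent reporter of the Oct4 promoter, grown on gelatin without feeder cells. Control cells received 0.9% NaCl and treated cells 10 µM morphine, both for 24 h, and each condition had 2 ChIP-Seq and 2 RNA-Seq libraries, 8 in all. The methods call the ChIP-Seq libraries biological replicates, and no source used here says that the RNA-Seq libraries came from separate cultures, so the spread between the latter may be technical. The methods give a minimum depth for the ChIP-Seq libraries but not the depth of each, and the peak lists held 10305 and 13778 peaks in the controls and 8681 and 12282 after morphine.

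H3K27me3, trimethylation of lysine 27 of histone H3, is deposited by Polycomb repressive complex 2 (PRC2), with EZH2 or EZH1 as the enzyme and EED and SUZ12 as core partners. In mESCs it is best known from CpG-rich promoters of silent developmental regulators such as the Hox genes. Away from promoters the mark can also lie in broad, weaker domains over intergenic sequence and the bodies of silent genes, and distal sites therefore differ in kind from the classical targets.

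The peak lists were checked against those classical targets. None of 39 Hox genes had a peak within 1 kb of a 5′ end in any of the 4 ChIP-Seq libraries, and no library had a peak anywhere inside the Hoxa, Hoxb, Hoxc or Hoxd clusters. Of 12 lineage genes expressed in differentiated cells, such as Gata4, Pax6 and Sox17, 1 (Mixl1) had a promoter peak in each library, while from 13% to 13.5% of all named 5′ ends had one. Loci with a promoter peak had a median RNA level of 0.354 to 0.404 CPM (counts scaled to library size) per kb of exon over the 4 lists, against 0.0375 to 0.0394 for loci without. The Hox genes and all but 1 of the lineage genes checked thus had no promoter peak in the lists that gave the distal sites. The paper reports that the pull-down was specific by ChIP-qPCR, with the Hox region as the positive control. The part that the missing peaks played in the sites was not tested.

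To show what kind of sequence the sites cover, the central 300 bases of the 4 strongest ones are given with those of the strongest shared distal site, read from the forward strand of GRCm38 (same coordinates as mm10), with CpG dinucleotides, the usual landmark of PRC2 targets, in capitals.
Member in the Pfdn4 locus, chr2:170504497-170504796: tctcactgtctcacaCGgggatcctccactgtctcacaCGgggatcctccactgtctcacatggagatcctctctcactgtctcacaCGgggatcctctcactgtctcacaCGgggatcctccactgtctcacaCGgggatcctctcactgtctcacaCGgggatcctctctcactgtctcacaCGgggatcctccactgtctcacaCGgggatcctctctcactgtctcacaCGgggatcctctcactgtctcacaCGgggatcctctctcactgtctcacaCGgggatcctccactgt
Member in the Zmynd15 locus, chr11:70466877-70467176: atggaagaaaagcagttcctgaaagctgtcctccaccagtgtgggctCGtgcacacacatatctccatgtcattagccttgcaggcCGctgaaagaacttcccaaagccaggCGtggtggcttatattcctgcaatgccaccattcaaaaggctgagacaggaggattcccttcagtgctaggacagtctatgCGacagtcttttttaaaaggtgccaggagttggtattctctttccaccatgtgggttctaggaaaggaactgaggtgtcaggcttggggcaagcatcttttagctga
Member in the Spdya locus, chr17:71550479-71550778: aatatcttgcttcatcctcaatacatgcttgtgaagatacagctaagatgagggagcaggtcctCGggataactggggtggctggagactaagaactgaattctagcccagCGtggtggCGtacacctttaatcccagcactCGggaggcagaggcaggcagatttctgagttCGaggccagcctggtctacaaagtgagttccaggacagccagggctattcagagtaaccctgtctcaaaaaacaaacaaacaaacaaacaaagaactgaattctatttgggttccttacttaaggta
Member beside Zfp868, chr8:69639198-69639497: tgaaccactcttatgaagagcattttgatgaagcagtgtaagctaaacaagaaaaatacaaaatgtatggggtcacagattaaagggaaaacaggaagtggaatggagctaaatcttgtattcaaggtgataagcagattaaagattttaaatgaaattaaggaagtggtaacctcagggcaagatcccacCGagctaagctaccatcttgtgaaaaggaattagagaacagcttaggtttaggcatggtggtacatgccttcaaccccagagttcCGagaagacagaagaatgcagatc
Shared distal site, chr14:19417231-19417530: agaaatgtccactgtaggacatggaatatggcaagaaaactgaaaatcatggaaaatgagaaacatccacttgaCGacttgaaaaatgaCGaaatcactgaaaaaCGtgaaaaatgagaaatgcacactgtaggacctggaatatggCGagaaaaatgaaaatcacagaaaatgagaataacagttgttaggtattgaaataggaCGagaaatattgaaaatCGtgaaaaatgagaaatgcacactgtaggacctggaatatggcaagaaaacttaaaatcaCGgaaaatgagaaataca

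The member in the Pfdn4 locus, a prefoldin subunit gene, was a tandem array: the 13 bases tgtctcacaCGgg occurred 11 times in its 300 bases, which hold 11 CpGs. That word, searched on both strands, was in the central 300 bases of 1 of the 2092 sites (0.0478%) and of 0 of 2900 shared distal sites, a count that allows a share of up to 0.103%. The central 300 bases of the members at Zmynd15, Spdya and Zfp868 held 4, 5 and 2 CpGs, and 41.0%, 54.7% and 60.7% of these bases were masked as repeats in the genome, against 0% at Pfdn4. Over the whole sites the masked share was 21.2%, 30.5% and 52.2%, and 16.7% at Pfdn4. The shared site, whose lower control score was 3100, held 7 CpGs and 82.7% repeat-masked bases in its window. Reads of multicopy repeats cannot be placed with certainty.

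The sites were weak peaks by the deposited score, a log10-scaled form of the peak caller's p in which a larger score means a smaller p, and which starts at 50 in these lists. The lower of the 2 control scores had a median of 63.3 (quartiles 55.3 and 75.3) at the 2092 sites and 95.7 (71.4 and 139) at the 2900 shared distal sites. A lower score under 60 was seen at 41.3% of the sites and 11% of shared distal sites, and one of at least 100 at 128 sites (6.12%) against 46.8%. Low scores were not particular to the control: at the 968 distal sites found only after morphine the lower morphine score had a median of 60.6, with 48.2% under 60 and 4.44% at 100 or more. The share of control distal sites found only in control ran from 864 of 1184 (73.0%) at scores of 50 to 60 to 284 of 831 (34.2%) at 80 to 100 and to 1 of 298 (0.336%) at 200 and over. These values belong to the lists that chose the sites and describe them only.

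**Figure D1:**
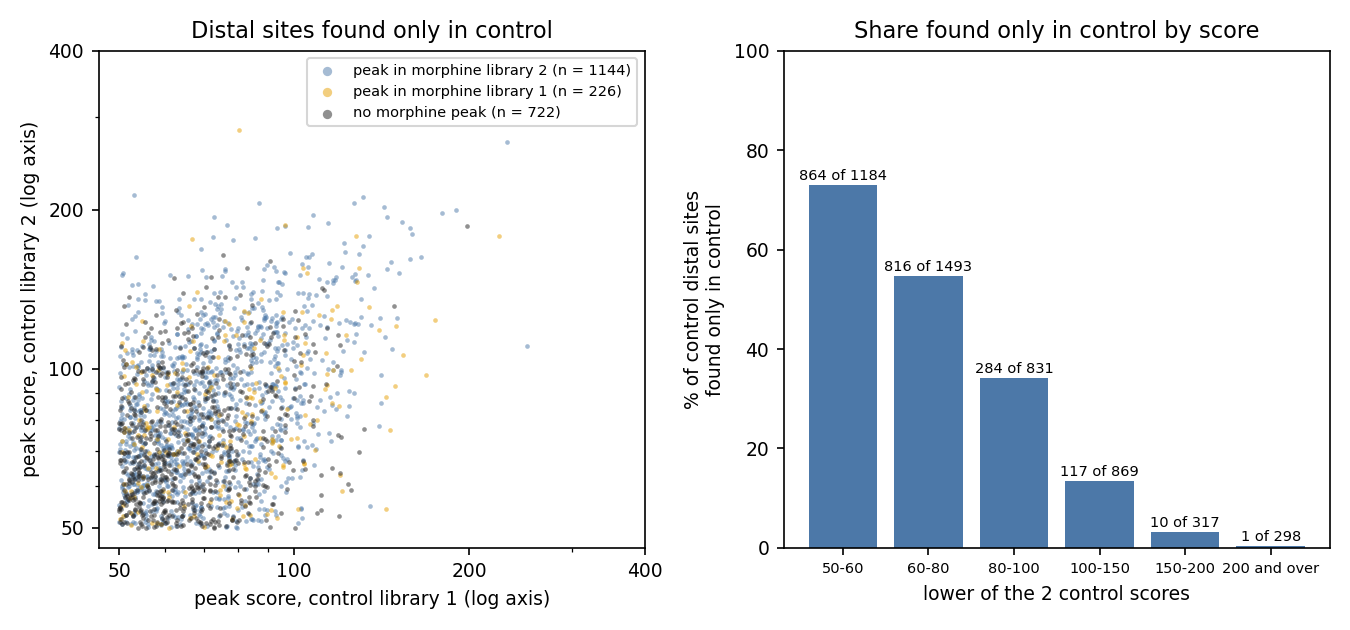
Left, peak scores of the 2092 distal sites found only in control in control library 1 (x axis) and control library 2 (y axis), both log axes, coloured by whether a morphine library had a peak there. Right, the percentage of control distal sites found only in control (y axis) by the lower control score (x axis), which falls from 73.0% to 0.336%.

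Most sites were not empty after morphine. A peak of morphine library 2 overlapped 1144 of the 2092 sites (54.7%) and a peak of morphine library 1, the shortest list, overlapped 226 (10.8%), so that 1370 sites had a peak in exactly 1 morphine library. No site had both, as the selection left out control sites that overlapped a morphine site. The remaining 722 sites (34.5%, 95% Wilson interval 32.5 to 36.6, counting error only) had no peak in either morphine library. Where morphine library 2 had a peak, its median score was 74.4, against 116 at shared distal sites, and in morphine library 1 the medians were 63.7 and 92.1. Without morphine library 1, 949 sites would have been found only in control, and without morphine library 2, 1867. Of the 968 distal sites found only after morphine, 273 (28.2%) had no peak in either control library.

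Overlap between single libraries was uneven within each condition too. Of the distal peaks of control library 1, 75.2% overlapped a peak of control library 2, 69% one of morphine library 2 and 52.2% one of morphine library 1. Of the distal peaks of control library 2, 57.6% overlapped a peak of morphine library 2, more than the 49.99% that overlapped control library 1, and 38.7% one of morphine library 1. Such shares rise with the length of the list overlapped, and the distal peaks numbered 6767 in control library 1, 10069 in control library 2, 5114 in morphine library 1 and 8509 in morphine library 2. Of the distal peaks of morphine library 2, 68.0% overlapped control library 2, less than the 75.2% of control library 1. A further comparison gave 54.1% of them overlapping control library 1 and 45.7% morphine library 1. Of the distal peaks of morphine library 1, 76.2% overlapped morphine library 2, 76.0% control library 2 and 68.3% control library 1. The distal share of all peaks was 65.7% and 73.1% in the controls and 58.9% and 69.3% after morphine, with overlapping groups. The difference was -5.28 percentage points (p = 0.667 by an exact permutation test, two-sided, in which no p under 0.33 can be reached). With that floor the test could not decide, and the shares come from the lists that chose the sites, so they describe those lists only.

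The 722 sites without any morphine peak had a median lower score of 59.6, below the 65.9 and 66.0 of sites with a peak in morphine library 1 or 2. They had a median width of 2708 bp against 3008.5 and 3034.5 bp. Their CpG density, 0.758 per 100 bp, was close to the 0.728 of sites with a peak in morphine library 2, and that of sites with a peak in morphine library 1 was 1.14. The strongest site without a morphine peak lay in an intron of Spdya, a regulator of cyclin-dependent kinases (chr17:71549187-71552070, control scores 198 and 187), and the next ones lay in the multicopy Gm3383/Gm5796 region of chromosome 14 (149 and 131), 64.0 kb from Mitf, the pigment cell regulator (119 and 116), 6.54 kb from Mrgprg (114 and 119) and 12.5 kb from Twf1, an actin-binding protein gene (113 and 141). These were named after their values were seen.

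The strongest site of all, chr2:170502007-170507286 in the Pfdn4 locus, scored 232 and 269 in the controls and 318 in morphine library 2, and had no peak in morphine library 1. The site in Zmynd15 (chr11:70465502-70468552) scored 190 and 200 in the controls and 87.8 in morphine library 2. The site 11.8 kb from the zinc finger gene Zfp868 (chr8:69637302-69641393) scored 180 and 198 and, in morphine library 2, 149. All 3 were thus present in 1 of the morphine libraries.

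The fifth, chr11:101772478-101778378, covered exons of Etv4, an ETS transcription factor gene that responds to FGF signalling, and scored 225 and 178 in the controls and 86.9 in morphine library 1. The last 3 of the 8 strongest lay near Dscc1 (165 and 163), 12.9 kb from the 5′ end of Gata5, an endoderm and heart regulator (159 and 180), and 45.3 kb from Ctla4, which encodes an inhibitory receptor of T cells (158 and 185), with morphine library 2 scores of 90.4, 178 and 128. Of the 8 strongest sites, 7 therefore had a peak in 1 morphine library, and only the Spdya site had none.

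The sites had a median width of 2922 bp (quartiles 2300 and 3846), against 3464.5 bp for shared distal sites and 2803 bp for the 968 distal sites found only after morphine. The longest spanned 11504 bp 1.68 kb from Zfp62, with scores of 86.9 and 58.0 in the controls and 78.9 in morphine library 2. The others of the 5 longest, from 7869 to 7936 bp, lay in introns of Macrod1, an ADP-ribose hydrolase gene, Vwc2, a secreted BMP inhibitor gene, Wwox, an oxidoreductase gene across a common fragile site, and Kcng2, a potassium channel subunit gene. Their lower scores were all from 56.5 to 60.4, so the widest sites were not the strongest.

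Relative to genes the sites were remote. The median distance to the nearest named 5′ end was 30652 bp, against 21096 bp for shared distal sites and 22969 bp for those found only after morphine. More than 100 kb from any named 5′ end lay 495 sites (23.7%), against 14.7% and 18.4%. By their midpoint in the GENCODE vM21 annotation, 87 sites (4.16%) were in an exon, 704 (33.7%) in an intron and 1301 (62.2%) outside genes, and exons held 10.3% of shared distal sites. GENCODE also placed a transcript start within 1 kb of 226 sites (10.8%) that the count table did not name, and without them 1866 sites remained. The 3 sites nearest the 1 kb limit lay 1019, 1020 and 1023 bp from the 5′ ends of Epb41l3, Gm5105 and Map3k9, and the 3 sites left out just within it lay 993, 991 and 988 bp from those of Lrp4, Arhgap42 and Nup93.

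The sites held fewer CpGs than shared distal sites. Their median density was 0.776 CpG per 100 bp (quartiles 0.473 and 1.28), against 1.23 at shared distal sites and 0.953 at distal sites found only after morphine, and the mean over the genome is 0.826. Median GC content was 42.0% against 44.7% at shared distal sites and 41.7% in the genome, and 20.9% of the sites held a CpG-island-like window (200 bp, GC above 50%, observed to expected CpG above 0.6) against 46.4% of shared distal sites and 27.6% of those found only after morphine. Repeats covered a median of 22.5% of a site and 22.4% of a shared distal site, below the 36.4% of the genome.

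The difference in CpG density was also present within classes of the lower control score. At lower scores of 60 to 80 the median was 0.782 CpG per 100 bp at the 816 sites found only in control and 1.12 at the 677 shared ones. At 50 to 60 the medians were 0.753 and 0.891, and at 100 and over they were 0.889 and 1.44. That last class is open, and its scores were not alike. Of its 128 sites found only in control, 117 scored 100 to 150, while shared sites reached 3100. The share in a GENCODE exon at scores of 60 to 80 was 3.8% against 7.83%. The quartile ranges overlapped in every class, and as sites are not replicates no test was run.

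**Figure D2:**
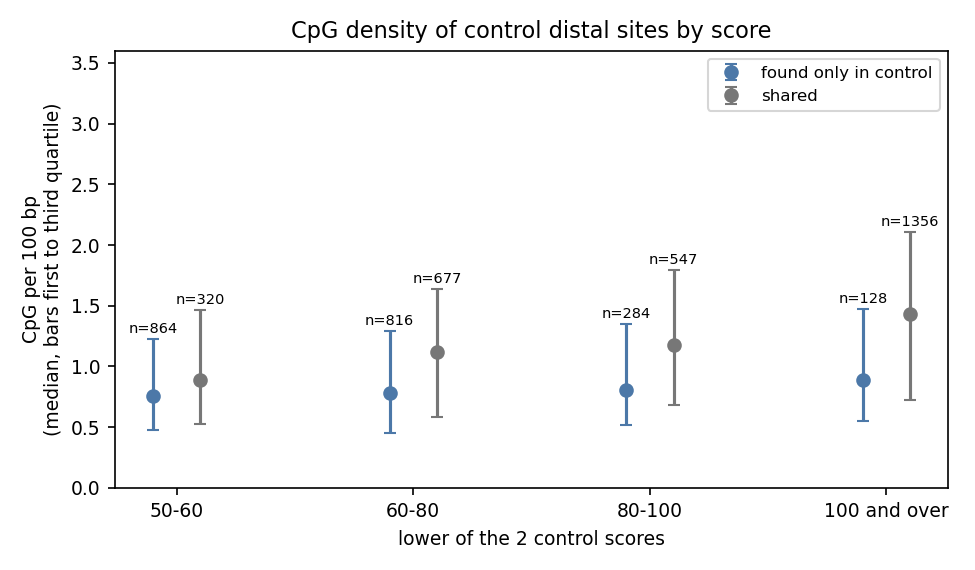
CpG dinucleotides per 100 bp (y axis) of distal control sites found only in control (blue) and shared with morphine (grey) by class of the lower control score (x axis). Points are medians and bars span the quartiles; the blue median lies below the grey one in all 4 classes, with overlapping bars.

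Chromosomes 8 and 11 held 279 and 241 of the sites, 24.9% of all, on 9.23% of the known bases. That is 2.22 and 2.03 sites per Mb, against 0.552 to 0.996 on the 17 other autosomes. Shared distal sites and those found only after morphine were also dense there, with 2.55 and 3.30 times the density of the other autosomes against 2.98 for the sites found only in control, and each of the 4 libraries had from 19.5% to 20.5% of its peaks on these chromosomes. Chromosome X held 30 sites, 0.184 per Mb. Leaving out chromosomes 8 and 11 left 1572 sites, of which 547 (34.8%) had no morphine peak. What sets the density on these chromosomes was not tested.

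**Figure D3:**
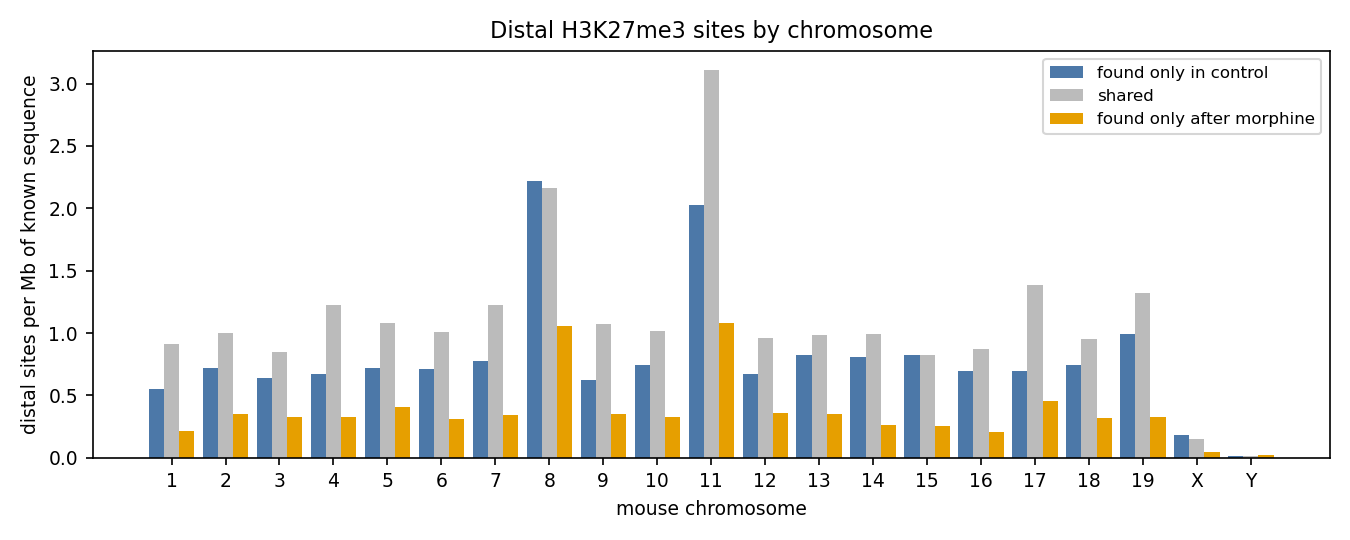
Distal sites per Mb of known sequence (y axis) on each mouse chromosome (x axis) for sites found only in control (blue), shared (grey) and found only after morphine (orange). All 3 kinds are densest on chromosomes 8 and 11, and sites found only in control reach 2.22 and 2.03 per Mb there.

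The median distance to the next site of the kind was 302 kb, with another within 100 kb for 563 sites (26.9%) and within 10 kb for 86 (4.11%), while 183 (8.75%) had a shared site within 10 kb. The densest run held 9 sites in 880 kb (chr8:48869246-49749733), of which 3 had no morphine peak, beside 3 shared distal sites. A run of 8 on chromosome 11 (chr11:98928615-99822235) crossed the keratin region, with sites in Ccr7, a chemokine receptor gene, and Krt222 and others nearest to Krt23 and Krtap4-8, and 4 of its sites had no morphine peak. A run of 8 on chromosome 8 (chr8:97919168-98790408) held no shared distal site.

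A named locus of the count table contained 694 of the sites (33.2%), against 38.8% of shared distal sites. These 694 sites fell in 949 loci with 723 gene names, because loci of the table overlap and one gene can have several. Of the 723 names, 584 had 1 site, 102 had 2 and 37 had 3 or more. The loci were long, with a median span of 112 kb against 10.3 kb over all named loci and 74.5 kb for loci holding a shared distal site.

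By gene name Gm3383, a multicopy name on chromosome 14, had most sites, 7 over its several loci. Of single-copy genes those with most sites were long. Sgcd, which encodes the muscle membrane protein delta-sarcoglycan, held 5 sites over its 1093 kb, all in introns, with control scores from 52.6 to 108, and 2 of them had no morphine peak. Nrxn3, a presynaptic adhesion gene of the neurexin family, held 4 sites in introns, 3 of them without a morphine peak, with control scores from 56.8 to 94.3. Tanc2, a postsynaptic scaffold gene, held 4 sites, of which 3 had no morphine peak.

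Zfp536, a zinc finger repressor gene of neurons, held 5 sites over its transcripts, each with a peak in morphine library 2 of 59.9 to 104. Lsamp, a neuronal adhesion gene, Galntl6, a glycosyltransferase-like gene, and Sgcz, which encodes zeta-sarcoglycan, held 4 each, with 1 site without a morphine peak in each. Such loci also included the immunoglobulin heavy chain region, with 5 sites over 2755 kb, and the multicopy Gm3500 and Gm3696 region of chromosome 14, with 4, where reads of near-identical copies make the peaks and counts uncertain.

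By family, given by symbol start, 723 of 31812 gene names (2.27%) held a site. Names that start with Cntn, Cntnap, Nrxn, Nlgn, Lrrtm, Lrp1b, Csmd or Ctnna, most of them neuronal adhesion genes, did so in 8 of 32 cases (25%), namely Cntn4, Cntn5, Cntnap2, Cntnap5a, Csmd1, Csmd3, Ctnna3 and Nrxn3, and 7 of the 32 held a shared distal site. Over all names 1173 held a shared distal site. Of 28 cadherin names 4 held a site (Cdh8, Cdh12, Cdh18 and Cdhr5), of 142 voltage-gated channel names 11, of 391 solute carriers 15 and of 395 zinc finger names 16, and a shared distal site was held by 4, 19, 14 and 32 names of these families. Protocadherins stood at 37 of 69, but 36 of these shared the same 2 sites in the clustered genes, and 40 held a shared distal site. These families are rich in long genes, and length was not taken out of the counts.

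Of 191 lineage transcription factor names 5 held a site (2.62%, against 2.27% over all names), namely Sox5, Sox6 and Pax8 and the non-coding Pax6os1 and Sox2ot, and no Hox gene did, while 9 of the 191 held a shared distal site. A further 13 names were the nearest to a site in no locus, among them Gata6 (2 sites, 151 and 218 kb away), Irx6 (2 sites, 38.1 and 45.4 kb), Foxa1 (16.0 kb), Foxc1 (25.3 kb) and Sox17 (93.6 kb). None of the 1119 olfactory receptor names held a site, 24 were nearest to one, and 1 held a shared distal site. The 1 kb limit leaves little room for a distal site of any kind in a short locus. Of 76 Wnt, Fzd, Bmp and Fgf names 2 (2.63%), Fgf7 and Fgf9, held a site.

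RNA of the loci holding a site was low. Their median level in control cells was 0.103 CPM per kb of exon and 0.0947 after morphine, and 79.8% of the 949 lay under 1 CPM per kb in control. Loci holding a shared distal site had a median of 0.223 with 69.6% under 1, and all 40846 named loci 0.0657 with 70.1% under 1. The low median of all loci comes with 13905 loci without any count, 34.0% of them, against 116 of the 949. Lsamp and Lrrc4c, a synaptic adhesion gene with 3 sites, had no count in any library, and Nrxn3 transcripts had at most 0.0679 CPM in any library. Sgcd had 0.692 and 1.05 CPM in the controls and 0.791 and 0.853 after morphine. At the other end, Tanc2 had 20.6 and 18.8 CPM in the controls and 19.8 and 19.3 after morphine, so a site in an intron went with measurable RNA there.

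**Figure D4:**
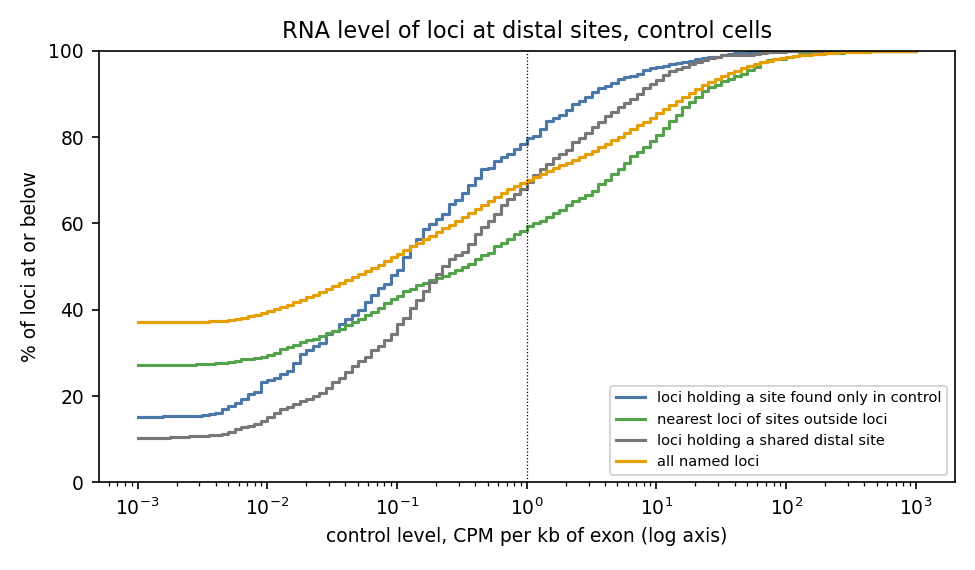
Cumulative percentage of loci (y axis) at or below a control RNA level in CPM per kb of exon (x axis, log; dotted line at 1) for loci holding a distal site found only in control (blue), the nearest loci of such sites outside loci (green), loci holding a shared distal site (grey) and all named loci (orange). At 1 CPM per kb the blue line has reached 79.8% and the grey line 69.6%.

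Cell identity and the PRC2 genes are given for reference. All 8 pluripotency markers were expressed, at 52.0 to 779 CPM per kb in control, and none passed the test, while the fibroblast markers Col3a1, Postn and Dcn were at 3 counts or fewer in every library and the 6 fibroblast markers summed to 10.3 to 12.5 CPM. None of the 6 PRC2 core genes passed, with Suz12 at -0.18 and Ezh2 at -0.15 on the log2 scale, and of 6 accessory genes Epop, an elongin-binding PRC2 partner, rose (259 and 274 CPM in control, 370 and 328 after morphine, log2 change 0.39 ± 0.06 SE, edgeR FDR = 0.0144). Neither demethylase gene passed (Kdm6a -0.24, Kdm6b 0.08), nor did any opioid receptor gene, of which Oprl1 alone had enough counts to be tested. Bulk RNA cannot tell fewer cells of a type from less RNA per cell.

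Whether RNA of loci with a site changed with morphine was tested over all loci by edgeR's quasi-likelihood test. Over 20350 tested loci 309 (1.52%) passed a Benjamini-Hochberg FDR of 0.05, 125 (0.614%) higher and 184 (0.904%) lower after morphine. Of the 498 tested loci holding a site, 4 (0.803%) passed, 2 higher and 2 lower, a share below that over all loci, and 83 had an unadjusted p under 0.05, against 4174 of the 20350 loci. The other loci were too low to test, and those tested had a median control level of 0.528 CPM per kb against 3.32 over all tested loci. Their median log2 change was -0.04, against 0.00 over all tested loci and 0.02 over the 931 tested loci holding a shared distal site, of which 13 (1.40%) passed. Loci holding a site had a median exon length of 4925.5 bp against 2864 bp over all tested loci, and once a trend with exon length was removed from the counts their median was 0.00, that over all tested loci 0.01 and that of loci holding a shared distal site 0.05.

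The counts of passing loci moved when single libraries were left out. Each such fit has a lone library in 1 group, whose spread is then taken from the other group. Without morphine RNA library 1, 0 of 514 tested loci holding a site passed edgeR's test (29 had an unadjusted p under 0.05), with 13 of 21224 over all loci (1963 at an unadjusted p under 0.05), and without control RNA library 2, 25 of 516 passed, with 1619 of 21116 over all. At the 215 tested loci whose site had no peak in either morphine library, 2 passed (0.930%), and their median log2 change was -0.05.

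Etv4, whose exons lie under the fifth strongest site, had 181 and 185 CPM in the controls and 216 and 209 after morphine. The groups did not overlap and the log2 change was 0.22 ± 0.05 (SE, edgeR FDR = 0.0476). The locus of H2-D1, H2-L and H2-Q1, MHC class I genes, rose from 30.7 and 32.5 to 42.0 and 39.6 CPM (log2 change 0.37 ± 0.07, edgeR FDR = 0.0282). It held a site at chr17:35275472-35278260 with control scores of 73.8 and 72.1 and no morphine peak.

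The locus Zfp990, a zinc finger gene of a multicopy cluster on chromosome 4, fell from 146 and 139 to 95.3 and 121 CPM (log2 change -0.40 ± 0.09, edgeR FDR = 0.0476). It held 2 sites, with control scores of 76.1 and 99.9 and of 55.2 and 99.3, neither with a morphine peak. The locus of Zfp534, Zfp979 and Zfp984 fell from 180 and 165 to 122 and 148 CPM (-0.35 ± 0.08, edgeR FDR = 0.0498), and its 2 sites each had a peak in 1 morphine library. Near-identical copies in these families and in the MHC make their read assignment uncertain. Without morphine RNA library 1 none of the 4 loci passed, and the log2 changes were -0.24 for Zfp990, -0.22 for the Zfp534 locus, 0.19 for Etv4 and 0.33 for the H2-D1 locus (edgeR FDR 0.293 to 0.414). Etv4 was also lost without control RNA library 1 (0.19, edgeR FDR = 0.132) and without morphine RNA library 2 (0.24, edgeR FDR = 0.0533). Both zinc finger loci missed the threshold by DESeq2 (adjusted p = 0.111 and 0.110), and the Zfp534 locus with a length trend removed from the edgeR fit (FDR = 0.0705).

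For the 1395 sites outside every named locus, the nearest named locus lay a median of 24114 bp away. These were 1225 loci, with a median control level of 0.333 CPM per kb, and 16 of the 674 tested (2.37%) passed, 5 higher and 11 lower, with 161 at an unadjusted p under 0.05 and a median log2 change of -0.05, against 309 (1.52%) and 4174 of all 20350 tested loci and a median of 0.00. Within 50 kb, 13 of 529 (2.46%) passed, 3 higher and 10 lower. Tested nearest loci were more highly expressed than the average tested locus, at a median of 4.95 against 3.32 CPM per kb. Without morphine RNA library 1 the number passing was 1 of 692 (0.145%, against 0.0613% over all loci) and without control RNA library 2 it was 75 of 694 (10.8%, against 7.67%).

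The nearest loci that passed were named after their values were seen. Cbx5, Smarca5 and Ino80d were among those that fell. Cbx5, which encodes the heterochromatin protein HP1 alpha, had 468 and 406 CPM in the controls and 335 and 359 after morphine (log2 change -0.33 ± 0.06, edgeR FDR = 0.0342), and its site lay 8.80 kb away with scores of 61.0 and 52.8 and no morphine peak. Smarca5, the ATPase of ISWI remodelling complexes, fell from 322 and 304 to 252 and 270 CPM (-0.26 ± 0.05, FDR = 0.0378 by edgeR), with a site 6.14 kb away that had a peak in morphine library 2. Ino80d, a subunit gene of the INO80 remodeller, had 89.8 and 76.8 CPM in the controls and 63.6 and 65.6 after morphine (-0.37 ± 0.07, edgeR FDR = 0.0378) and lay 46.3 kb from its site.

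The largest fall among them was that of S100a10, a calcium-binding family gene whose product partners annexin A2. It had 65.5 and 62.2 CPM in the controls and 42.8 and 41.9 after morphine (log2 change -0.59 ± 0.06, edgeR FDR = 0.00103), and lay 1.10 kb from a site with scores of 68.8 and 59.9 and no morphine peak. Further falls were those of Phip, Naa30, Zfp266, Atxn7l3b, Gm20939, Mki67, the proliferation marker, and 1 locus known only by a database identifier, with log2 changes from -0.24 to -0.52.

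Of the 5 nearest loci that rose, Id1, an inhibitor of helix-loop-helix factors that BMP signalling induces, had 22.8 and 24.7 CPM in the controls and 32.7 and 34.5 after morphine (log2 change 0.50 ± 0.07, edgeR FDR = 0.0119), 12.1 kb from a site with scores of 79.6 and 93.7 and no morphine peak. Myc, the growth regulator, rose from 47.3 and 47.3 to 57.6 and 55.5 CPM (0.26 ± 0.06, edgeR FDR = 0.04996), 2.64 kb from a site with scores of 73.9 and 79.3 and no morphine peak. H2-K1, an MHC class I gene, rose from 37.1 and 41.5 to 51.4 and 51.4 CPM (0.39 ± 0.07, edgeR FDR = 0.0246).

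The miRNA host locus Mirg rose by a log2 change of 0.36 ± 0.07, 99.2 kb from its site. A locus named Ubb on chromosome 14, 138 kb from its site, stood at 16.5 and 0.713 CPM in the controls and 84.8 and 35.4 after morphine (log2 change 2.82 ± 0.62, edgeR FDR = 0.0481), with the libraries of each group far apart. Its log2 change was 6.38 without control RNA library 1 and 1.86 without control RNA library 2, and DESeq2 did not call it (adjusted p = 0.279). The loci that passed thus included neighbours of sites in both directions, and whether a site bears on its neighbour was not tested.

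Several of these calls did not hold throughout. Without morphine RNA library 1 S100a10 alone of the 16 nearest loci passed, the edgeR FDR of the others running from 0.0752 for Id1 to 0.472 for Ubb, and the log2 change of Gm20939 was -0.32 instead of -0.52. Without control RNA library 1 Ino80d (-0.25), Atxn7l3b (-0.23), Naa30 (-0.28), Mki67 (-0.21), Mirg (0.31) and Myc (0.25) missed the threshold, with edgeR FDR from 0.0570 to 0.110. Without morphine RNA library 2 Ino80d (-0.39), Atxn7l3b (-0.29) and Myc (0.29) missed it (edgeR FDR 0.0517 to 0.0569). With a length trend removed Ino80d (-0.26), Phip (-0.24), Mki67 (-0.15) and Myc (0.22) missed it (edgeR FDR 0.0548 to 0.0925), and by DESeq2 Gm20939 did as well (adjusted p = 0.104).

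**Figure D5:**
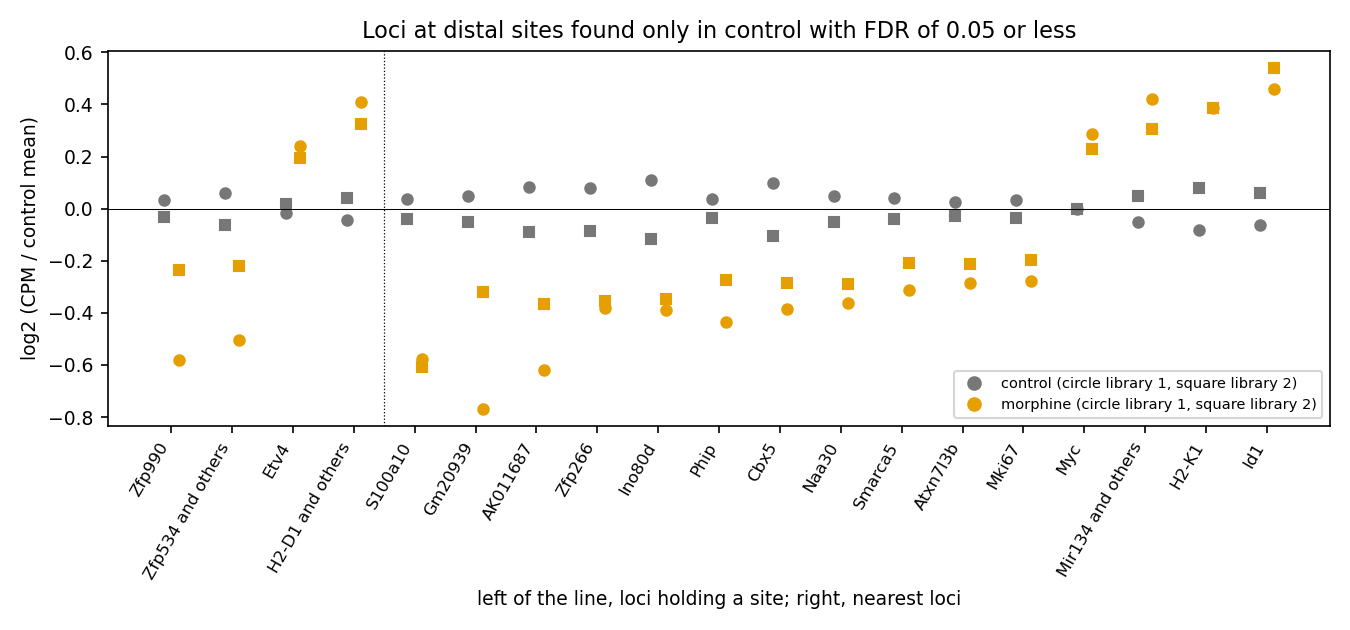
RNA level of each library relative to the control mean (y axis, log2 of the CPM ratio) for the 4 loci that held a distal site found only in control and passed an FDR of 0.05 (left of the dotted line) and 15 of the 16 nearest loci that passed (right), with Ubb left off for its scale. Grey points are control and orange points morphine libraries, circles library 1 and squares library 2; the groups do not overlap at any of the loci shown.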

How the data were processed

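Control and morphine-treated Oct4-GFP mESCs were compared by H3K27me3 ChIP-Seq and RNA-Seq, with 2 libraries per group and assay. The authors aligned ChIP-Seq reads to mm10 with Bowtie2 2.3.5.1 and called peaks per library with MACS at p = 1e-05, and the deposited score of a peak is minus 10 times the log10 of its p. The control library given to MACS was not given in the sources used here, the methods state a minimum ChIP-Seq depth but not that of each library, and the labels and the methods name different antibody suppliers. The authors aligned RNA reads with HISAT2 2.1.0, assembled loci with StringTie 1.3.6 and deposited raw counts per locus from featureCounts 1.6.4, in which loci overlap and the use of strand was not stated. Totals were 27820199 and 29531096 counts in the controls and 25081266 and 28052049 after morphine.

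Peaks of a condition were merged on an overlap of 1 bp, and the 5′ end of a locus was its lowest start on the plus and its highest end on the minus strand. The 3 sites on unplaced contigs had no distance. Sequence, repeats and GENCODE vM21 genes came from GRCm38. Counts were tested with edgeR 4.0.16 in R 4.3.3 by the quasi-likelihood test (TMM factors, filterByExpr, Benjamini-Hochberg adjustment over 20350 loci), and the script was tested on simulated data. Other steps used Python 3.11.15, numpy 2.4.6, pandas 2.3.3, scipy 1.17.1 and matplotlib 3.10.9. CPM is the count scaled to the total of its library.

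The members, gene lists and families were chosen with earlier results of these data known. Named were the 8 strongest and 5 longest sites, 3 sites on each side of the 1 kb limit, the 3 densest runs, the 10 loci with most sites and every locus holding a site at an FDR of 0.05; others are said to be named after their values were seen. Alternatives were another overlap, score limit, distal limit and equal list lengths, DESeq2 1.42.0, edgeR's exact test, RLE factors, no count filter, a length trend, a replicate block and leaving out each library. Site sets were compared without a test, as sites are not replicates, and p-values measure only the spread between libraries.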

Additional observations from a re-analysis of the deposited data

How the results depend on the processing

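The number of sites moved with the peak lists. With every peak list cut to scores of at least 100 it was 565 instead of 2092, and 35.4% instead of 33.2% lay in a named locus. Of the 565, 180 (instead of 722) had no morphine peak of such a score, as weaker morphine peaks were cut too. Only 128 of the 2092 sites had a lower score of at least 100, so the 565 were not a part of the 2092. With the same number of strongest peaks from every library it was 1189, of which 445 had no morphine peak in the cut lists. Leaving out 1 ChIP-Seq library gave from 949 to 6636 sites, from 949 to 3802 without a morphine peak (by construction every site where a morphine library was left out) and from 32.4% to 34.8% in a locus. The number stayed within 1.5 times with an overlap of 50% (2059), a limit of 3 kb (1906) and 5′ ends of all loci (2089), and in 2 checks added after seeing the data, without chromosomes 8 and 11 (1572) and beyond 1 kb of GENCODE starts (1866). The difference in distal share ran from -0.0935 to -10.5 percentage points on leaving out 1 library. The cause of these moves was not tested beyond the smaller lists that the alternatives themselves make.

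Of the loci holding a site, 12 passed by edgeR's exact test (790 over all loci), 26 without a count filter (1657 over all), 7 of 69 by DESeq2 (650 of 6258 over all) and 2 where the site had no morphine peak, against 4 in the report. Leaving out 1 RNA library gave from 0 to 25, and for the nearest loci from 1 to 75 instead of 16. The count was 4 with RLE factors, 5 with a length trend removed and 3 without chromosomes 8 and 11. With the length trend removed, 159 loci were higher and 162 lower over all loci. Same-numbered RNA libraries did not deviate together (correlation 0.026), so the numbers were not read as pairs. With the replicate block 17 loci holding a site and 60 nearest loci passed, with 1128 over all loci. None of the 20 passing loci that held a site or lay nearest to one changed direction where refitted. Of these, 3 (Id1, Mirg and 1 without a gene name) have no value from DESeq2. Epop was not among the 20, and its rise was not checked under the alternatives. The ChIP-Seq depth of each library was not used here, and a site near the score of 50 cannot be told from one just missed.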
